A study of Mus musculus with 5 samples.

Results

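The zinc finger protein ZFP541 is made in male germ cells, and ChIP-seq recovers the DNA that a protein is cross-linked to with an antibody. The regions described here are the ZFP541-occupied sites at the end of 1 protein-coding gene that has no coding or long noncoding neighbour end beside it, so that each region can be assigned to 1 gene. Peaks of the wild-type ChIP libraries that overlapped by at least 1 bp were joined into 5457 regions, and 5325 remained after those touching a knockout peak were dropped. A region was kept when its summit, taken from the widest replicate 1 peak, lay within 1 kb of an end of exactly 1 coding gene and of no lncRNA gene on chromosomes 1 to 19. This left 2778 regions at 2737 genes, which is 52.9% of the 5254 autosomal regions (95% exact binomial interval 51.5 to 54.2).

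The cells were spermatocytes in pachytene and diplotene, enriched by STA-PUT sedimentation, which sorts germ cells by size, from the testes of C57BL/6 adults. The ChIP libraries used a rabbit antibody raised against the N-terminal part of ZFP541, with 2 libraries from wild-type cells and 1 from Zfp541-/- cells, and the 2 wild-type input libraries were not analysed here. The lists held 8236, 10371 and 256 peaks in replicate 1, replicate 2 and the knockout. Nothing in the labels says that the replicates came from separate animals, read depth is unknown, and peak lists carry no expression with which the labelled cell type could be checked. The value given for a region in each library is the fold enrichment of its strongest peak, a ratio over local background computed by the authors' peak caller.

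In pachytene and diplotene, chromosomes are paired, recombination is completed, and the cell transcribes genes for the divisions and for sperm formation. ZFP541 carries ELM2 and SANT domains of the kind found in scaffolds of histone deacetylase complexes, and it is known to work with KCTD19 and with class I histone deacetylases. Mammalian promoters fall into CpG-rich ones, which often serve housekeeping and developmental genes, and CpG-poor ones, which often serve tissue-restricted genes.

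Strongly occupied promoters are shown first as letters, to make the CpG counts below concrete. The 6 sequences below are the 250 bases before the annotated start (RefSeq, GRCm38.p6, the assembly of mm10), 5′ to 3′ on the gene's strand, for the best-ranked regions whose replicate 1 summit lay in that stretch and whose listed start is the gene's own end. Capitals mark the 6-base word CGCGCG, which reads the same on both strands and which is returned to below; Jarid2 and Cry1 do not hold it here.
Ssbp3, chr4:106911220-106911469, plus strand: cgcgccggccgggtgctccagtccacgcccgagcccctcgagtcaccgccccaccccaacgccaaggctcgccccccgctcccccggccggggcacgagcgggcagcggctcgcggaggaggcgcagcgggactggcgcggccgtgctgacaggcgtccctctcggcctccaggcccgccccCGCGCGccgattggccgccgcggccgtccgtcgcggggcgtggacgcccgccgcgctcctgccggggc
Zswim5, chr4:116877152-116877401, plus strand: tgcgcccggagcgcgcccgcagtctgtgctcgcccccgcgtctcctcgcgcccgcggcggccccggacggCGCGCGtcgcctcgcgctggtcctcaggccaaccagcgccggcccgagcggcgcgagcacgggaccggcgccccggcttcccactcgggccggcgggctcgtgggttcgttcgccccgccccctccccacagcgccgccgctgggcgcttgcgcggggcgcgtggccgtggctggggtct
Jarid2, chr13:44730524-44730773, plus strand: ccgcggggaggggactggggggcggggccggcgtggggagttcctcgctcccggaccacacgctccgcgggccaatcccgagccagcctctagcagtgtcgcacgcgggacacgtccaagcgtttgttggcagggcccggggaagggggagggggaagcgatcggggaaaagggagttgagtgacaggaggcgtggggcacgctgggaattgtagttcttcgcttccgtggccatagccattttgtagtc
6430548M08Rik, chr8:120113902-120114151, plus strand: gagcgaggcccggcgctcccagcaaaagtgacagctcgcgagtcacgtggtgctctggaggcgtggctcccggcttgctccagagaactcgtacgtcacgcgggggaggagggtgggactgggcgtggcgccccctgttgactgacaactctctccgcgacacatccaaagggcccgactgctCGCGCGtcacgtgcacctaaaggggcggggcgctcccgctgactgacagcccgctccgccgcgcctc
Grin1, chr2:25319188-25319437, minus strand: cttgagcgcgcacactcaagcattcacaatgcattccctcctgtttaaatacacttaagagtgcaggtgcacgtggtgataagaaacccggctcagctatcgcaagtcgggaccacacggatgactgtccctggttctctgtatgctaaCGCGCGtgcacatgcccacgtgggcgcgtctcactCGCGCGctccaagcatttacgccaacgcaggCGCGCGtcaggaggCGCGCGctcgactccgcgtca
Cry1, chr10:85185055-85185304, minus strand: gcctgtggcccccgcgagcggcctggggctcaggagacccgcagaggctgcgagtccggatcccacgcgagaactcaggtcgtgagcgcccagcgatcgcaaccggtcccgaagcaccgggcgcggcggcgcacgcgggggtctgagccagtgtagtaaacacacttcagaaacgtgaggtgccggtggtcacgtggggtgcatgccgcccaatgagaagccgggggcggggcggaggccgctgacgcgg

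CpG dinucleotides number 43 in the Ssbp3 stretch, 47 in Zswim5, 23 in Jarid2, 28 in 6430548M08Rik, 27 in Grin1 and 31 in Cry1. Fold enrichment was 15.4 in replicate 1 and 17.8 in replicate 2 at Ssbp3, 16.1 and 15.8 at Zswim5, and 13.3 and 19.8 at Jarid2, the gene of a Polycomb-associated protein. It was 13.5 and 17.5 at 6430548M08Rik, 13.2 and 14.8 at Grin1, which encodes an NMDA receptor subunit, and 11.3 and 21.5 at Cry1, a repressor of the circadian clock. For contrast, the same stretch is given for 3 lone starts without a wild-type peak within 1 kb: Gatad2b, a subunit of the NuRD deacetylase complex, Prm1, the protamine that packs sperm DNA, and Alb, the liver gene of serum albumin.
Gatad2b, chr3:90292931-90293180, plus strand: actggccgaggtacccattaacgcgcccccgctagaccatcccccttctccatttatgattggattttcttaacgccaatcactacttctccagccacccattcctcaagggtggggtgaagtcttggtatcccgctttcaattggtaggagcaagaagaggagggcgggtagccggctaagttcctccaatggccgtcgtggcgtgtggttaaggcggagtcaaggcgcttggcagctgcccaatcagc
Prm1, chr16:10796824-10797073, minus strand: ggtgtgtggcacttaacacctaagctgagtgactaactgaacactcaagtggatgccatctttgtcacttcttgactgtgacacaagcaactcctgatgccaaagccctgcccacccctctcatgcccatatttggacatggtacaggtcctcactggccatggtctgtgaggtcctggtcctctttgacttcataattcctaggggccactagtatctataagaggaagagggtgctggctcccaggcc
Alb, chr5:90460620-90460869, plus strand: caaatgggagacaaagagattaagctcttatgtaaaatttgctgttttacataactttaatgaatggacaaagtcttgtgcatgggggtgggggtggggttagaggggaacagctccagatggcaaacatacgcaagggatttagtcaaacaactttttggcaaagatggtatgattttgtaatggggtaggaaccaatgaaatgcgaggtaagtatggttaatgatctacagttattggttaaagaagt

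The Gatad2b stretch holds 13 CpG, the Alb stretch 2 and the Prm1 stretch 0, and none of the 3 holds CGCGCG. These stretches illustrate the groups compared below and were not used as a sample of them.

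The regions sat at gene starts. The strand of the gene was known for 2240 regions, and 2194 of them (97.9%, 97.3 to 98.5) lay at the start and 46 (2.05%, 1.51 to 2.73) at the 3′ end. Of 12616 lone starts, 16.8% had such a region, against 0.29% of 13796 lone 3′ ends. Counted over both ends, 14% of 19371 eligible genes, those with an end free of other ends within 1 kb, had a region (2717 genes).

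Summits lay just inside the gene. In replicate 1 the median summit was 195 bp downstream of the gene's outermost start (quartiles 40 and 398 bp), and 1764 of 2194 (80.4%, 78.7 to 82.0) were downstream. Replicate 2 gave a median of 189 bp (quartiles 48 and 410 bp) with 81.3% (79.6 to 82.9) downstream. Measured from the nearest of the gene's listed starts, the median was 100.5 bp downstream (quartiles −59.8 and 264.8 bp), 68.0% lay after that start and 86.3% within 500 bp of it. Within single regions the summits of the replicates differed by a median of 88 bp (quartiles 37 and 204 bp).

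**Figure D1:**
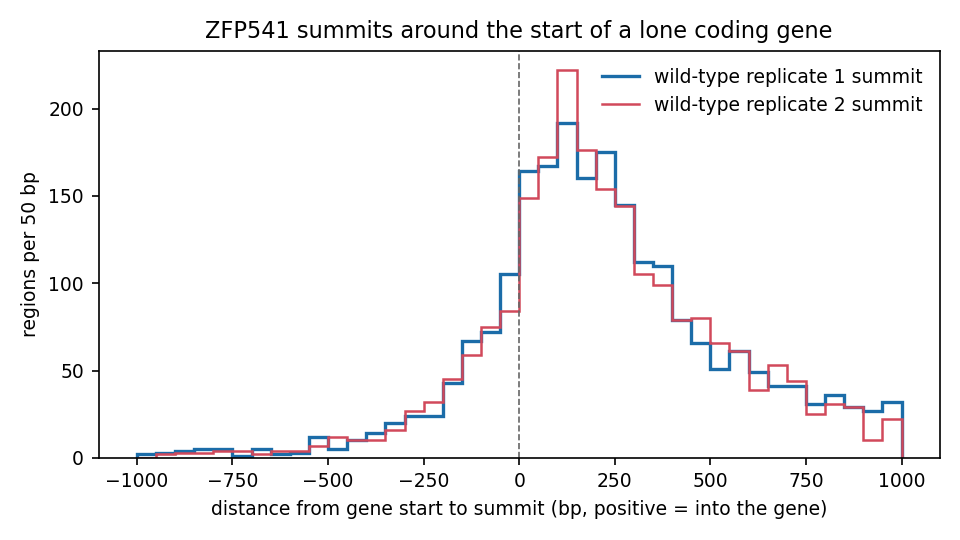
Number of regions per 50 bp (vertical axis) by the signed distance in bp of the summit from the gene's outermost start (horizontal axis, positive into the gene), for the summits of replicate 1 (blue) and replicate 2 (red) of the 2194 start regions. Both outlines peak between 0 and 300 bp downstream, and their medians are 195 and 189 bp.

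The 1 kb limit fell within a continuous range of distances. Just inside it were Nkpd1 and Spast at 1000 bp and Mtfr1 at 999 bp, with fold enrichments of 7.70 and 7.58, 7.14 and 6.37, and 3.31 and 4.26 in replicates 1 and 2. Just outside were regions nearest to Zc3h4 at 1002 bp (5.36 and 5.37), Rdx at 1004 bp (13.0 and 16.4) and Cdh2 at 1006 bp (3.21 and 3.69).

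Fold enrichment spanned a wide range and the libraries largely kept the same order. In replicate 1 the lowest region had 1.84, the median 5.69 (quartiles 4.14 and 7.86) and the highest 23.2; in replicate 2 these were 2.12, 6.34 (4.48 and 8.73) and 26.3. Spearman's rho between the replicates over the 2778 regions was 0.737 and Pearson's r of the log2 values 0.742, given as a description, since regions are not replicates and share their 2 libraries. The values are coarse: replicate 1 took 534 distinct values over the 2778 regions, and 88 regions shared the value 4.64. A −log10 q of at least 5 in both libraries was reached by 1547 regions (55.7%, 53.8 to 57.5), against 52.8% of all autosomal regions, and of at least 10 by 888 (32.0%, 30.2 to 33.7), against 30.1%. In 310 regions the q-value was above 0.05 in at least 1 library.

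The other classes of autosomal regions are given for scale. Median fold was 5.36 in replicate 1 and 5.71 in replicate 2 at the 510 regions beside ends of several coding genes, 5.71 and 6.38 at the 499 beside coding and lncRNA ends, 5.36 and 5.69 at the 221 beside lncRNA ends alone, and 5.0 and 5.37 at the 1246 away from such ends. The lone-gene medians lay within the range of those classes in both replicates, and the differences were not tested. Median width was 1095.5 bp (quartiles 709 and 1642 bp), 404 regions spanned 2 kb or more, and width rose with fold (Spearman's rho 0.664 and 0.704 in the replicates, across regions). The widest were at Ski, a corepressor of TGF-β signalling (4778 bp), Sox12 (4757 bp) and Rex1bd (4470 bp).

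**Figure D2:**
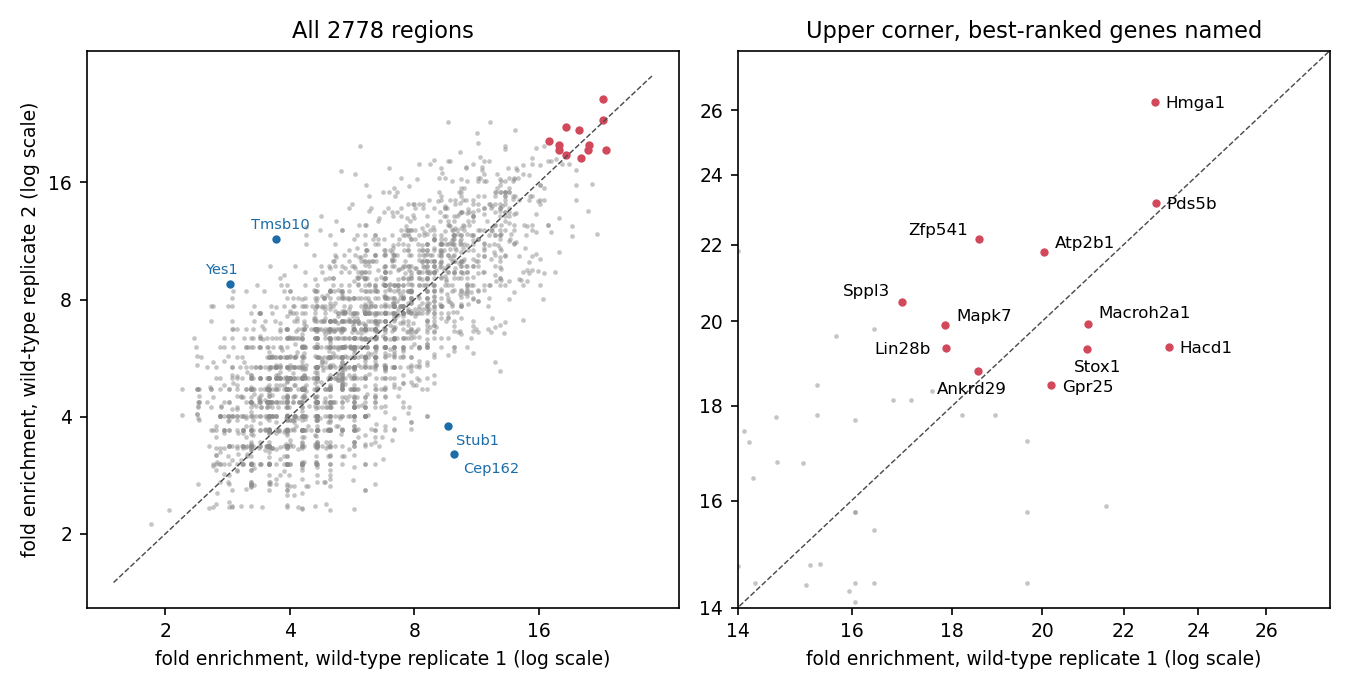
Fold enrichment of the strongest peak of each of the 2778 regions in wild-type replicate 1 (horizontal) and replicate 2 (vertical), log axes, with equality dashed. The left panel shows all regions, with the 12 best-ranked in red and the 4 whose ranks differ most in blue; the right panel enlarges the upper corner, where Hmga1 and Pds5b lie highest.

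The best-ranked regions, by mean percentile rank of fold over both libraries, included several genes of chromatin structure. Hmga1, an architectural chromatin protein with AT-hooks, had 22.8 in replicate 1 and 26.3 in replicate 2 (chr17:27554428-27558259, summit 747 bp into the gene). Pds5b, a regulator of cohesin on chromatin, had 22.9 and 23.2 (chr5:150672998-150674703, summit 74 bp upstream). Macroh2a1, a histone H2A variant, had 21.1 and 19.9 (chr13:56133208-56136507). In each of these genes both libraries were near the top of their own range.

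The other leading places went to genes of varied function. Atp2b1, a calcium pump of the plasma membrane, had 20.05 and 21.8 (chr10:98913341-98916887), and Mapk7, a MAP kinase, had 17.9 and 19.9. The intramembrane protease gene Sppl3 had 17.0 and 20.5, the orphan receptor gene Gpr25 had 20.2 and 18.5, and Hacd1, of very-long-chain fatty acid synthesis, had 23.2 and 19.4. Zfp541 itself had 18.6 and 22.2 and the summit 47 bp inside its start (chr7:16061236-16062675). It is the gene altered in the knockout, so the absence of a knockout peak there, which the selection required at every region, is not a separate result. Stox1, a winged helix gene, had 21.1 and 19.3, Lin28b, an inhibitor of let-7 microRNA processing, had 17.9 and 19.3, and Ankrd29 had 18.6 and 18.8.

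At the other end of the range, Tfam, the mitochondrial transcription factor, had 2.62 and 2.34 and Pabpc1, a poly(A)-binding protein, had 2.55 and 2.32. Hjurp, the chaperone of the centromeric histone, had 2.04 and 2.31, and Gm40364 had 1.84 and 2.12. The −log10 q was 0.61 and 0.28 at Tfam, 0.77 and 0.31 at Pabpc1 and 0.23 and 1.11 at Gm40364. Neither library placed these regions under a q-value of 0.05. At Hjurp, with 0.63 and 2.02, only replicate 2 did. The libraries differed most in rank at Tmsb10 (3.71 and 11.4), Stub1 (9.64 and 3.78), Cep162 (10.0 and 3.20) and Yes1 (2.87 and 8.75), where a single library sets the impression of strength.

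CpG content separated occupied from unoccupied starts. A sequence of 300 bases (250 before to 50 after the start) was available for 11339 lone starts, of which 2039 had a region and 8269 had no wild-type peak within 1 kb. The ratio of observed to expected CpG was at least 0.6, here called CpG-rich, in 91.5% (90.2 to 92.6) of the occupied promoters and in 26.3% (25.4 to 27.3) of those without a peak; over all 20085 autosomal coding promoters it was 48.9%. Median CpG number was 28 against 5 and median GC content 67.0% against 51.0%. The intervals cover counting error only.

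Occupancy climbed with the CpG ratio. A region was found at 12 of 3087 starts with a ratio under 0.2 (0.389%), at 2.04% of starts from 0.2 to 0.4, at 8.64% from 0.4 to 0.6, at 25.5% from 0.6 to 0.8, at 43.5% from 0.8 to 1 and at 461 of 742 with a ratio of 1 or more (62.1%, 58.5 to 65.6). CpG-rich starts held 1865 regions, 38.5% of 4838, and the others 174, 2.68% of 6501. Each library alone showed the same ascent, with a peak within 1 kb of 45.5% of CpG-rich starts in replicate 1 and 51.2% in replicate 2. The knockout list, which is much shorter, had a peak at 1 CpG-rich start and at 1 other start.

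**Figure D3:**
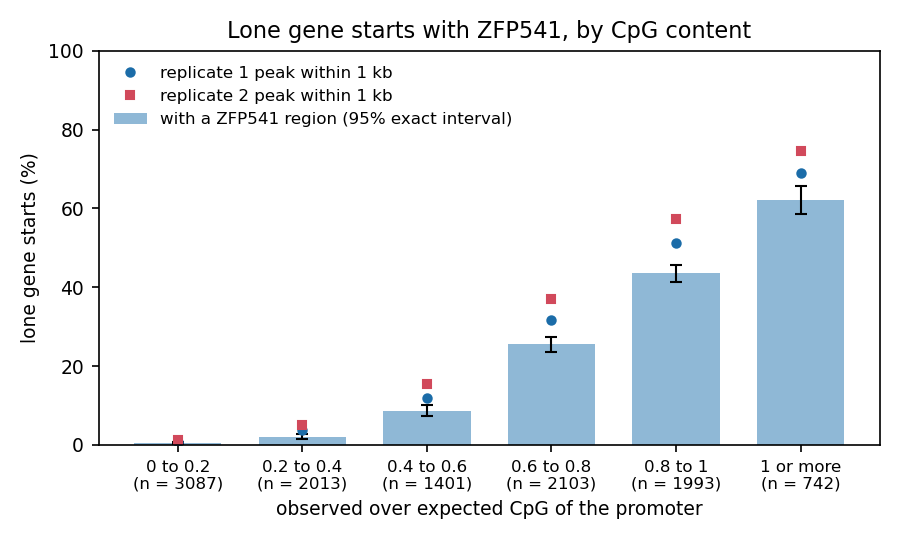
Percentage of lone gene starts with a ZFP541 region (bars, with 95% exact intervals) and with a peak of replicate 1 (circles) or replicate 2 (squares) within 1 kb, by the observed over expected CpG of the 300-base promoter. The bars climb from 0.389% in the lowest bin to 62.1% in the highest, and n is the number of starts in each bin.

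Within the occupied starts CpG content said less about strength. Median fold rose from 4.10 and 5.04 in the lowest bin (12 regions) to 6.50 and 7.48 in the highest, while Spearman's rho between CpG ratio and fold over the 2039 regions was 0.188 in replicate 1 and 0.196 in replicate 2. The 12 occupied promoters with a ratio under 0.2 were those of Gm12447, Klhl40, Oxct2a, Fem1al, Gm3373, Mvb12b, Mesp1, Myo1c, Grin3b, Sp8, Jund and Gm40415. Klhl40, a muscle gene, was the second strongest by rank of these, with 8.21 and 6.04, and Sp8 and Jund, which encode transcription factors, had 3.87 and 3.02 and 3.21 and 3.02. GC content moves with CpG content, and the share of either in peak calling was not tested, since input values were not used.

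Short sequences were counted in the 300-base promoters on both strands, as descriptions of letters and not of bound factors. The GC box GGGCGG, the element of SP and KLF factors, was in 78.8% of occupied promoters and 30.6% of those without a peak; among CpG-rich promoters alone the shares were 81.8% and 70.3%, and over all coding promoters 47.0%. TATAAA, the TATA box, was in 4.86% and 19.99%, and within CpG-rich promoters in 4.56% and 8.05% (12.7% of all). The E-box CACGTG was in 13.3% of occupied and 9.47% of unoccupied CpG-rich promoters (7.89% of all), while the ETS core CCGGAAGT was the less frequent in occupied ones, at 5.90% against 8.78% (5.28% of all). CNCCTCAG, known as an element of the meiotic initiator STRA8, was in 10.2% and 8.09% (8.57% of all), and the NRF1 core GCATGCGC in 6.81% and 6.44% (3.55% of all). Not all of the 13 sequences counted are given. Among the rest, also in CpG-rich promoters, the ZBTB33 core CTCGCGAG was in 2.63% and 1.47% (1.21% of all). The cyclic AMP response element TGACGTCA was in 3.43% and 4.23%, the E2F core GCGGGAA in 9.65% and 10.2% and the MYB core CNGTTG in 30.2% and 30.3%.

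Of all 6-base words, CGCGCG stood highest. Among the 805 words found in at least 10% of occupied CpG-rich promoters, it had the largest ratio of occupied to unoccupied shares, 46.4% against 17.7% (2.62 times), with 15.7% over all coding promoters. It was in 57.6% of the 467 occupied CpG-rich promoters with the highest fold and in 37.7% of the 467 with the lowest, whose median CpG numbers were 33 and 27 and median GC contents 70.7% and 65.7%. The overlapping words GCGCGA (32.2% against 14.3%), GCGCGC (50.3% against 25.4%) and CGCGAG (36.2% against 18.6%) followed, and A-rich words such as AGAAAA (13.1% against 21.7%) were lowest. CGCGCG holds 3 CpG, so its share moves with CpG number, which had a median of 29 in occupied and 21 in unoccupied CpG-rich promoters.

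In bins of similar CpG number, starts with CGCGCG were still occupied more often. With 10 to 19 CpG, 25.5% (18.9 to 33.0) of 157 starts with the word and 14.6% (13.1 to 16.2) of 2102 without it had a region. With 20 to 29 CpG the shares were 43.4% and 29.9%, with 30 to 39 they were 61.6% and 46.6%, and with 40 or more 82.5% (78.2 to 86.2) and 73.3% (64.3 to 81.1). Median GC content differed by less than 1 percentage point between the groups in each of these bins, and median CpG number by 1 or 2 with the word group higher. The word was picked from these same promoters, so the counts describe them and test nothing. Fold at occupied promoters with the word had a median of 6.20 and 7.04 in the replicates (877 regions), against 5.36 and 5.83 without it (1162). In the bin of 10 to 19 CpG the order was the opposite, with 4.63 and 5.28 with the word and 5.31 and 5.71 without it.

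**Figure D4:**
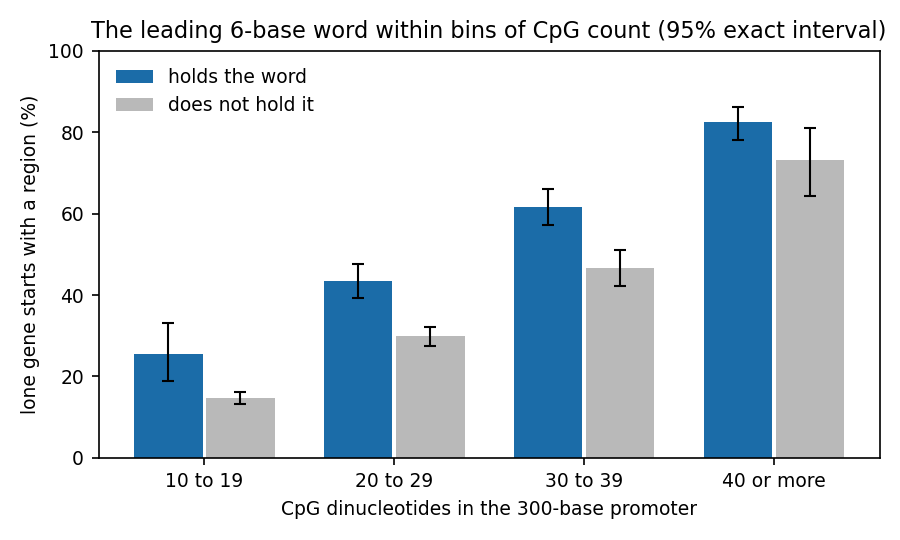
Percentage of lone gene starts with a ZFP541 region (vertical axis, bars with 95% exact intervals) for promoters that hold the 6-base word (blue) and that do not (grey), in bins of the number of CpG in the 300-base promoter. The blue bar is the taller in each bin, from 25.5% against 14.6% to 82.5% against 73.3%; the intervals of the last bin overlap.

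Occupied genes were long. Median gene length was 34734 bp at lone starts with a region and 14574.5 bp at those without; among CpG-rich starts it was 35503 bp with a region and 21656 bp without a peak. By chromosome, the share of eligible genes with a region ran from 8.53% on chromosome 7 (161 of 1887) to 17.8% on chromosome 12 (116 of 650).

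Genes were then counted in 23 lists of 20 to 48 genes and read against 14% of all eligible genes and 38.5% of CpG-rich lone starts. The counts carry no test, and exact intervals of small lists are wide. The lists were chosen with earlier results of these data known, and the CpG-rich counts were added after these data were seen. Shares and intervals therefore describe the lists and do not test them against the background. Chromatin remodelling and genome organisation had the highest share, 22 of 34 eligible genes (64.7%, 46.5 to 80.3), and 18 of 22 among its CpG-rich starts. Besides Hmga1 and Macroh2a1 it held Chd7 (19.6 and 14.4), a remodelling ATPase, and members of the BAF complex from Smarcc1 (9.28 and 10.3) and Smarca4 (5.76 and 10.4) down to Smarcd1 (2.83 and 2.72). The −log10 q of Smarcd1 was 1.06 and 0.49, above a q-value of 0.05 in both libraries. HMG proteins recurred, with Hmgn2 at 12.9 and 9.68 and Hmgb1 at 5.67 and 9.73. Ctcf, the insulator protein, had 7.50 and 5.11 but is not among the eligible genes.

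Enzymes that write and erase chromatin marks were frequent too. Histone methylation enzymes had 16 of 38 (42.1%, 26.3 to 59.2; 13 of 18 CpG-rich), led by the demethylase genes Kdm4b (14.6 and 17.8) and Kdm7a (7.71 and 14.1) and the H4K20 methyltransferase gene Kmt5b (9.29 and 10.6). Prdm9, which sets recombination sites, was low at 4.29 and 3.69. DNA methylation had 8 of 18 (44.4%, 21.5 to 69.2) and 6 of 7 CpG-rich starts (42.1 to 99.6). The list held the TET dioxygenase genes Tet3 (10.0 and 9.36) and Tet2 (8.21 and 8.06) and the methyltransferase gene Dnmt3b (6.52 and 11.4). Of the 10 genes of the list without a region, 9 had no wild-type peak at either end, among them Tet1, Dnmt1 and Dnmt3a. Histone acetylation and bromodomain genes had 11 of 27 (40.7%, 22.4 to 61.2), led by Ing3 (8.40 and 9.73), Ncoa1 (7.86 and 9.73) and Brpf3 (7.09 and 10.4). Among their CpG-rich starts 8 of 14 had a region (57.1%, 28.9 to 82.3), an interval that includes the 38.5% of all such starts.

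Histone deacetylase complexes, the setting in which ZFP541 itself is placed, had 9 of 28 (32.1%, 15.9 to 52.4), with Zfp541 among the 9. Of their CpG-rich starts 7 of 13 had a region, with an interval (25.1 to 80.8) that includes the 38.5% of all such starts. After Zfp541 came Tbl1xr1 (13.9 and 8.36), a subunit of a corepressor complex. Subunits of other complexes were present at lower fold, such as Mta1 (6.17 and 7.55), Rcor1 (7.71 and 5.37) and Sin3b (5.24 and 7.38). Hdac1 had no wild-type peak within 1 kb of an end, whereas Hdac2 had peaks of both libraries and Kctd19 a replicate 1 peak without meeting the selection. Of the 23 genes of this list without a region, 5 had no wild-type peak at either end, so the others had a peak of at least 1 wild-type library there.

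Of the signalling lists, 2 had intervals above the share of all eligible genes. MAP kinase and receptor signalling had 20 of 41 (48.8%, 32.9 to 64.9) and 17 of 21 CpG-rich starts. The best-ranked were the adaptor gene Grb2 (12.1 and 14.1), the receptor gene Igf1r (12.9 and 12.1) and the feedback inhibitor genes Spred1 (9.87 and 12.1) and Spry2 (10.0 and 10.4). The lowest-ranked was Map4k3 (2.86 and 3.36), with a −log10 q of 0.44 in replicate 1. Wnt, Notch, Hedgehog and TGF-β genes had 19 of 46 (41.3%, 27.0 to 56.8), and their 12 of 21 CpG-rich starts (57.1%, 34.0 to 78.2) had an interval that includes the 38.5% of all such starts; they held the Wnt coreceptor gene Lrp6 (12.6 and 15.4), the receptor gene Tgfbr1 (12.3 and 13.9) and Ski (10.4 and 15.1). Phosphoinositide and calcium signalling had 9 of 36 (25%, 12.1 to 42.2), an interval that includes the background, with Pik3cb (14.2 and 16.4) and Rictor (6.93 and 15.1) after Atp2b1, and 6 of its 15 CpG-rich starts, near the background of such starts.

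Cell cycle genes were counted in separate lists. G1 and S phase genes had 13 of 35 (37.1%, 21.5 to 55.1), including the E2F genes E2f5 (12.9 and 14.1) and E2f1 (10.5 and 12.3) and the cyclin gene Ccne1 (9.33 and 16.9). G2 and division genes had 3 of 31 (9.68%, 2.04 to 25.8), 2 of 17 among CpG-rich starts: Cdc25a (8.57 and 7.72), Cks2 (8.13 and 5.03) and Wee1 (5.0 and 2.77), with −log10 q of 0.70 for Wee1 in replicate 2. Cdk1, Ccnb1, Ccna1 and Plk1, genes of entry into division, had no wild-type peak at either end. Of the 31 genes of the G2 and division list without a region, 20 had no such peak. The others had a peak of at least 1 wild-type library, among them Prc1 and Ccna2 with peaks of both. Regions called without replicate 1 gave 20 genes in the first list and 5 in the second, and those called without replicate 2 gave 15 and 6. The interval of the second list includes the 14% of all eligible genes. Among CpG-rich starts its interval (1.46 to 36.4) lies below the 38.5% of all such starts. In the first list 10 of 19 CpG-rich starts had a region, with an interval (28.9 to 75.6) that includes 38.5%. The difference between the lists was not tested.

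Genes of meiosis included a few high values. Meiotic recombination and synapsis had 5 of 36 (13.9%, 4.67 to 29.5). Among CpG-rich starts 2 of 14 had a region (14.3%), with an interval (1.78 to 42.8) that includes the 38.5% of all such starts. Sycp1, of the transverse filament of the synaptonemal complex, had 22.1 in replicate 1 and 11.8 in replicate 2, the helicase gene Hfm1 12.9 and 11.7, and Tex15 10.0 and 12.2. Mnd1 (7.86 and 7.95) and Meiob (4.74 and 3.97) completed the list, and Spo11, Sycp2, Sycp3 and Hormad1 had no wild-type peak at either end. The list's share of 13.9% is near the 14% of all eligible genes. Either replicate alone gave 10 genes, counted over the 40 matched genes of the list and not only the eligible ones. The share of all eligible genes was then 18.98% without replicate 1 and 16.5% without replicate 2. Whether the share depends on requiring both libraries was not tested. Of the 35 genes without a region, 20 had no wild-type peak at either end. Cohesin and condensin genes had 4 of 24 (16.7%), with Pds5a (10.3 and 14.2) and Smc3 (5.71 and 7.05) after Pds5b. Of the 23 genes of this list without a region, 17 had no wild-type peak at either end. These included the meiotic subunit genes Rec8 and Stag3, whereas Smc1b had a replicate 1 peak at an end.

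Germ cell regulators before and around meiosis had 10 of 34 (29.4%, 15.1 to 47.5). Of their CpG-rich starts 6 of 10 had a region, with an interval (26.2 to 87.8) that includes the 38.5% of all such starts. Lin28b led the list, followed by Egr4, a zinc finger gene of germ cells (12.6 and 15.1). The Egr4 summit lay nearer the 3′ end, but the region spans the whole gene, its start included. Next came Bhmg1, also called Meiosin, a partner of STRA8 (10.4 and 16.3). Dazl, an RNA-binding protein gene, had 6.79 and 4.12. Pachytene and spermatid transcription genes had 11 of 23 (47.8%, 26.8 to 69.4) at mostly modest fold, with medians of 5.0 and 6.04. Of their CpG-rich starts 9 of 12 had a region (42.8 to 94.5). Pou2f1 had 5.33 in replicate 1 and 17.1 in replicate 2, a wide gap, Atf1 had 7.50 and 6.04, and Mybl1, a regulator of pachytene transcription, had 4.64 and 6.38. The piRNA pathway had 7 of 23 (30.4%, 13.2 to 52.9), among them Tdrd5 (8.57 and 4.70), Spocd1 (6.43 and 5.70) and Henmt1 (5.0 and 6.04). Of its CpG-rich starts 4 of 6 had a region, with an interval (22.3 to 95.7) that includes 38.5%.

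Genes used later or in other cells had few regions of this kind. Spermiogenesis and flagellum genes had 1 of 32 (3.13%, 0.0791 to 16.2), Odf2 of the outer dense fibres, with 5.24 and 5.71, and either replicate alone gave 3. Of the 38 genes of this list without a region, 27 had no wild-type peak at either end, so the others had a peak of at least 1 library. Testis somatic cell genes had 1 of 23 eligible (4.35%, 0.110 to 21.9), Inhbb (3.93 and 5.04), and outside the eligible genes the Sertoli cell hormone gene Amh (11.4 and 12.1). Hepatocyte and blood genes had 0 of 25, where the exact interval reaches 13.7%. The intervals of the spermiogenesis and somatic lists include the share of all eligible genes. Few of these genes have CpG-rich lone starts (5, 2 and 1 in that order), of which 1, 1 and 0 had a region. The part of CpG content in the low shares was not tested.

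**Figure D5:**
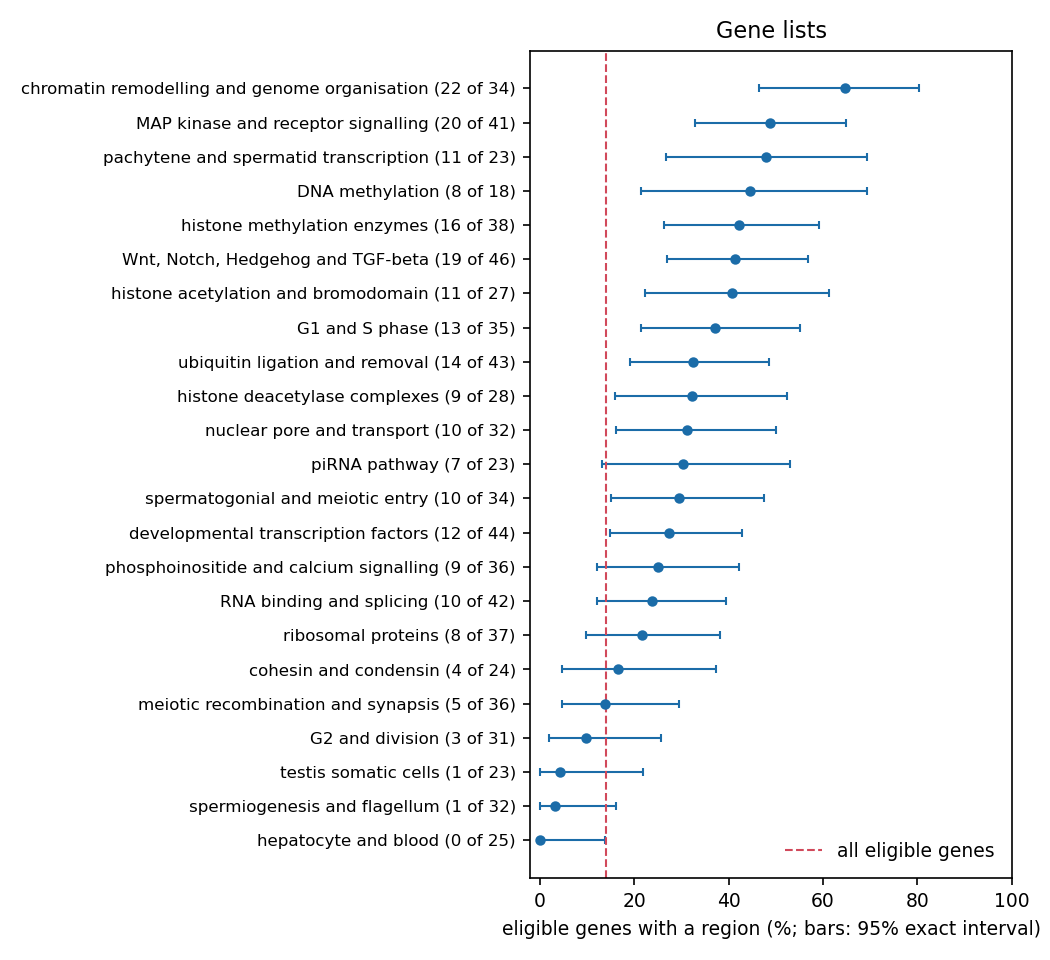
Percentage of eligible genes with a ZFP541 region in each of 23 lists (points, with 95% exact intervals); counts stand beside the names and the dashed line marks 14% of all eligible genes. Chromatin remodelling lies at 64.7%, recombination and synapsis at 13.9%, and hepatocyte and blood genes at 0.

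Lists of general cell functions lay in between. CpG-rich starts with a region were 8 of 13 for ubiquitin ligation, 9 of 15 for nuclear pore and 6 of 14 for developmental factors. For RNA binding they were 7 of 12 and for ribosomal proteins 7 of 15. The exact interval of each of these shares includes the 38.5% of all CpG-rich lone starts. Ubiquitin ligation and removal had 14 of 43 (32.6%), led by Rnf168 (12.3 and 12.2), a ligase of the DNA damage response, with Usp1 (7.63 and 12.1) and Ube2e3 (8.21 and 10.1). Nuclear pore and transport had 10 of 32 (31.3%), including the importin genes Kpna3 (9.45 and 13.1) and Kpnb1 (7.15 and 7.38) and the Ran exchange factor gene Rcc1 (6.04 and 7.55). Developmental transcription factors had 12 of 44 (27.3%), with Sox12 (10.7 and 17.5), Sox11 (8.21 and 17.8) and Tead1 (11.8 and 10.3). RNA binding and splicing had 10 of 42 (23.8%), with Srsf6 (7.71 and 11.8), Khdrbs3 (8.46 and 10.1) and Hnrnpr (9.51 and 8.73). Ribosomal protein genes had 8 of 37 (21.6%), among them Rps19 (7.73 and 6.64), Rplp0 (6.79 and 6.04) and Rps15 (4.09 and 7.72). Their median fold was 3.83 in replicate 1 and 6.34 in replicate 2, against 5.69 and 6.34 over all 2778 regions. Without replicate 2 the count of ribosomal protein genes was 13.

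Groups of genes with a common symbol stem were counted where at least 10 had a region, a rule that lets small groups in only at a high share, so the largest alone are given. Zfp genes had 55 of 376 (14.6%, 11.2 to 18.6), solute carrier genes named Slc 45 of 349 (12.9%, 9.56 to 16.9), Tmem genes 34 of 209 (16.3%, 11.5 to 21.98) and predicted genes named Gm 38 of 927 (4.10%, 2.92 to 5.58). A common stem does not make the genes related.

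The 46 regions at 3′ ends were weaker and sat at shorter genes. Their median fold was 4.47 and 4.87, against 5.70 and 6.37 at starts, and their median gene length 6897.5 bp against 34547.5 bp. The summit lay inside the gene in 38 of them, and 11 (23.9%) were at genes under 3 kb, against 4.83% of start regions. In 7 of the 46 a listed start of some gene lay within 1 kb of the summit. The strongest were Lactbl1 (11.7 and 17.5, chr4:136636553-136639611), Egr4 (12.6 and 15.1) and Rtn4rl2 (12.5 and 15.1), with summits 466 to 989 bp inside the end. The Egr4 region (chr6:85510772-85513976) spans the whole gene of 2469 bp, its start included.

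In 39 genes more than 1 region met the selection. Pik3cb had the strong region above and another of 2.78 and 4.03, Enpp1 had 15.0 and 12.4 with another of 3.21 and 2.69, and Igf1r had another of 4.29 and 3.69. In these 3 genes both libraries ranked the same region far above the other.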

How the data were processed

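The peak lists of the 3 ChIP-seq libraries were analysed and the inputs left aside. The submitters' processing notes name MACS2 2.2.6 beside Bowtie2 2.3.5, with deepTools 3.5.0, Picard, SAMtools 1.10 and cutadapt 2.6, on mm10. Settings, controls and thresholds of the peak calls are not given in the sources. The deposited lists, called per library, give a fold enrichment (a ratio to the caller's background), a −log10 q and a summit offset for each peak, all made by the authors.

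Peaks were joined, filtered and assigned as the report states, with gene ends from a RefSeq table of GRCm38.p6. Gene entries before 3 Mb, in the gap at chromosome starts, were dropped because their coordinates are those of scaffolds. Strand and promoters came from a RefSeq promoter table that does not cover every gene. Gene lists held 831 symbols, 808 matched to autosomal coding genes, 6 of these through a synonym. Expected CpG is the product of the C and G counts over the length. Only the bases before a start are printed.

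The regions, lists and motifs were chosen with earlier results of these data known, and the 6-base words and the CpG-rich counts of lists after these data were seen. Named are the 12 best and 4 lowest regions by mean percentile rank of fold, up to 3 best of each list, the 3 widest, the 4 with the largest difference in rank, 3 on each side of the 1 kb limit, up to 3 genes with more than 1 region and the 3 best at 3′ ends; other genes were picked after their values were seen. Of the genes this names, 1 is not reported here. No test was run, since there are 2 wild-type libraries and 1 knockout. Alternatives were stricter q-values, 50% reciprocal overlap, other summits, windows of 500 bp and 2 kb, knockout peaks kept, lncRNA ends ignored, scaffold entries kept and each replicate alone. The assignment was checked on simulated data. Software was Python 3.11.15 with scipy 1.17.1, pandas 2.3.3, matplotlib 3.10.9 and numpy 2.4.6. Depth is unknown, so a missing peak does not show that a site was unbound.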

Additional observations from a re-analysis of the deposited data

How the results depend on the processing

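Every alternative kept most regions at gene starts, downstream of the start and at CpG-rich promoters; counts and strengths moved. With a −log10 q of at least 5 or 10 in each list, 1549 or 889 regions were left, 7.92% or 4.56% of eligible genes and 22.3% or 12.8% of CpG-rich lone starts; median fold was then 7.50 or 9.29 in replicate 1 and 8.39 or 10.1 in replicate 2, the CpG-rich share 93.4% or 94.5%, and the share of CpG-rich member promoters with CGCGCG 52.4% or 55.3%, and the distance was 203 bp at 10. Reciprocal overlap of 50% gave a distance of 204 bp, a replicate 2 fold of 6.91 and 28.4% of CpG-rich starts. The widest replicate 2 peak's summit gave a distance of 190 bp. A window of 500 bp gave 98.7% at starts, 142 bp, 93.0% CpG-rich promoters and 31.9% of CpG-rich starts occupied; a window of 2 kb gave 96.9%, 217.5 bp and 40.4%. Each replicate alone gave 95.2% to 96.5% at starts, 180 to 183 bp, 88.6% to 90.1% CpG-rich promoters, 43.6% to 48.8% of CpG-rich starts, 43.4% to 45.1% with CGCGCG, and folds of 4.88 without replicate 2 and 4.83 without replicate 1. The cause of these shifts was not tested, except that a stricter q or smaller window keeps fewer peaks by construction.

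Counts in the 23 gene lists and of the 84 named genes moved by more than 1.5 times in 49 of 288 comparisons with an alternative. At a −log10 q of at least 10 the piRNA pathway list had 0 regions, pachytene and spermatid transcription 1 and chromatin remodelling 10. Recombination and synapsis had 10 genes from either replicate alone. The number of named genes kept was lowest, 61, with the 500 bp window. No test was run, paired or unpaired. Of the wild-type libraries that share replicate numbers, only the ChIP ones had peak lists analysed here.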
